A study of Mus musculus with 20 samples.

Results

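The complement component genes examined here were 9 genes of mouse skin: the C1q chain genes C1qa, C1qb and C1qc, the protease gene C1ra, the central components C4b and C3, the alternative pathway protease gene Cfb, the inhibitor gene Serping1 and the receptor gene C3ar1. They were chosen by gene symbol, and all 9 were found among the 22090 genes of the count table. RNA-seq had been performed on back skin of female hairless SKH-1 mice, a strain in which repeated ultraviolet radiation (UVR) gives rise to skin tumors. The 8 mice, aged 7 months, formed 2 groups of 4, of which 1 was irradiated with a solar simulator and the other received no ultraviolet radiation. By the methods of the study, this was the age when the groups were formed. Tissue was taken after the weeks of irradiation that followed, when the mice were older. Normal skin (NS, n = 8), actinic keratosis (AK, n = 8), which is a precancerous lesion, and cutaneous squamous cell carcinoma (cSCC, n = 4) were compared. By the methods of the study, each unirradiated mouse gave 1 NS, and each irradiated mouse gave 1 NS, 2 AK of different grades and 1 cSCC. The labels do not name the mouse of a tissue, the grade of an AK or which NS was irradiated, so NS held both kinds of normal skin. The samples were tested as independent although the AK, the cSCC and some of the NS came from the same 4 mice. Mice were thus shared within AK and between groups, and p-values may be too small or too large for that reason.

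Complement is a cascade of plasma and tissue proteins that marks microbes, dying cells and immune complexes. In the classical pathway, C1q, a bundle of 3 kinds of chain, binds the target. The protease C1r then activates the protease C1s, which cuts C4 and C2. C3 is cleaved next, which releases the peptide C3a. C1q is made mainly by macrophages and dendritic cells, whereas most circulating complement comes from the liver, and fibroblasts and keratinocytes of the skin also make components such as C3, C1r and the C1 inhibitor.

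Total counts ranged from 775750 to 14055206 per sample, and 3 counts, the floor used here, were worth 0.225 to 3.78 CPM. CPM are counts scaled to a common library total with TMM factors over the 20 samples. Floors cover counting error only. cSCC replicate 20 held 35527 CPM of lung marker genes and cSCC replicate 21 held 49830 CPM of heart muscle marker genes, and the other cSCC samples held at most 8.34 and 147 CPM of these lists. Haemoglobin genes took 46.8% of the counts of cSCC replicate 18 and at most 14.3% of those of any other sample. In bulk tissue, fewer cells of a type and less RNA per cell cannot be told apart. The 6 keratinocyte markers, which define the epidermis, summed to 3748 to 19039 CPM and were found in every group. Of 6 liver markers none reached the number of counts needed for testing, and their summed level was at most 3.39 CPM in every sample but NS replicate 7, which held 97.0 CPM.

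The first result concerned C1q. C1qa was higher in cSCC than in AK and NS, C1qb gave a positive fold change that did not pass the test, and C1qc did not pass in any comparison, with log2 fold changes from -0.17 to 0.10. These genes lie side by side on chromosome 4 of GRCm38, all on the minus strand and each with 3 exons. C1qb spans chr4:136880129-136886187, C1qc spans chr4:136889804-136893065 and C1qa spans chr4:136895917-136898803, with 3616 bases between the first 2 and 2851 bases between C1qc and C1qa. The 250 bases before the RefSeq start of C1qb (chr4:136886201-136886450, minus strand) and 99 bases before C1qc (chr4:136893066-136893164, minus strand) are shown because the fold changes of these neighbors are set side by side here, although the difference between them was not tested. The RefSeq start of C1qc lies inside the GENCODE span of the gene, so the 151 bases that fall in that span are left out. Both are from RefSeq on GRCm38.p6, printed 5′ to 3′, with no capitals because no motif was found in them. C1qa had no entry in the promoter table.
C1qb: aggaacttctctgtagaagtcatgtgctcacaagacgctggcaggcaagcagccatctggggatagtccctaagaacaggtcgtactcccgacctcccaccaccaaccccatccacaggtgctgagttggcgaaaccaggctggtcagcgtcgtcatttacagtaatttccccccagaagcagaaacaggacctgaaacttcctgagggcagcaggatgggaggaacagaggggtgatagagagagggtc
C1qc: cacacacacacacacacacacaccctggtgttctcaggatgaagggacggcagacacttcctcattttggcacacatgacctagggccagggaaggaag

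Promoter windows of 300 bases, 250 before and 50 after the start, were available for 5 of the 9 members (C1qb, C1qc, C1ra, C3 and C3ar1). They were searched on both strands for the core of an interferon-stimulated response element (GAAA, any 2 bases, GAAA), a gamma-activated site (TTCNNNGAA) and an NF-kB site (GGGA, any base, TTTCC), which were found in 3.44%, 8.30% and 0.411% of 32851 promoters. The C1ra window held the one match, TTCCCTGAA, at bases 283 to 291 of the window, which lies after the start, and it overlapped no other motif. The windows of C1qb, C1qc, C3 and C3ar1 held none of these letters, which says only that the letters are not in them.

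C1qa, which encodes the A chain of C1q, ranged from 9.01 to 93.0 CPM in NS (median 24.1) and from 4.79 to 27.7 CPM in AK (median 17.1). In cSCC replicates 18, 19, 20 and 21 it was at 41.0, 193, 118 and 68.1 CPM. All 4 cSCC samples lay above all 8 AK samples, as they did for 3.33% of the 12032 genes tested, and 2 of the 4, replicates 19 and 20, lay above the highest NS sample. The mean was 105 ± 66.9 CPM in cSCC (SD, n = 4), compared with 32.8 ± 27.3 CPM in NS and 16.6 ± 8.99 CPM in AK (SD, n = 8 each). In edgeR's quasi-likelihood test with Benjamini-Hochberg adjustment, C1qa rose in cSCC vs. AK by a log2 fold change of 2.77 (SE 0.47, adjusted p = 0.00248) and in cSCC vs. NS by 1.73 (SE 0.53, adjusted p = 0.0341). In AK vs. NS the log2 fold change was -1.01 (SE 0.44, adjusted p = 0.164), which did not pass the test. Of all genes tested, 24.4% were called in cSCC vs. AK, 19.3% in cSCC vs. NS and 4.64% in AK vs. NS. The call of C1qa in cSCC vs. AK was kept under each alternative in which it was tested and without any single sample, with log2 fold changes from 2.30 to 2.96. The call in cSCC vs. NS was lost when any of NS replicates 4, 5, 6, 7, 8 and 9 was left out, and also without cSCC replicate 19 (1.26, adjusted p = 0.142), without cSCC replicate 20 (1.65, adjusted p = 0.0642) and with library size alone (1.58, adjusted p = 0.0833). Without cSCC replicates 20 and 21 together it was also lost, at 1.87 (adjusted p = 0.0759), whereas cSCC vs. AK then gave 2.90 (adjusted p = 0.00545).

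C1qb, the gene of the B chain, ranged from 10.7 to 123 CPM in NS (median 55.7) and from 1.26 to 79.6 CPM in AK (median 48.8). Its cSCC values were 22.9, 213, 184 and 81.0 CPM in replicates 18 to 21. Replicates 19, 20 and 21 lay above the highest AK sample, and replicate 18 lay within the AK and NS ranges. The log2 fold change was 1.56 (SE 0.63, adjusted p = 0.0819) in cSCC vs. AK, 1.21 (SE 0.59, adjusted p = 0.163) in cSCC vs. NS and -0.30 (SE 0.48, adjusted p = 0.736) in AK vs. NS, so none passed. Without cSCC replicate 18, of whose counts 46.8% were haemoglobin, cSCC vs. AK passed at 1.82 (adjusted p = 0.0322). The lowest AK value, 1.26 CPM, was a single count in AK replicate 12, below the floor of 3.78 CPM for that library, which held 14 counts of C1qa and 32 of C1qc.

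C1qc, the gene of the C chain, ranged from 15.2 to 77.9 CPM in NS (median 44.6) and from 11.6 to 52.4 CPM in AK (median 42.5). The cSCC values, 21.5, 37.8, 50.1 and 34.1 CPM in replicates 18 to 21, all lay inside the range of both other groups. Its log2 fold changes were -0.17 (SE 0.34) in AK vs. NS, -0.11 (SE 0.43) in cSCC vs. NS and 0.10 (SE 0.38) in cSCC vs. AK, with adjusted p-values of 0.788, 0.884 and 0.879.

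**Figure D1:**
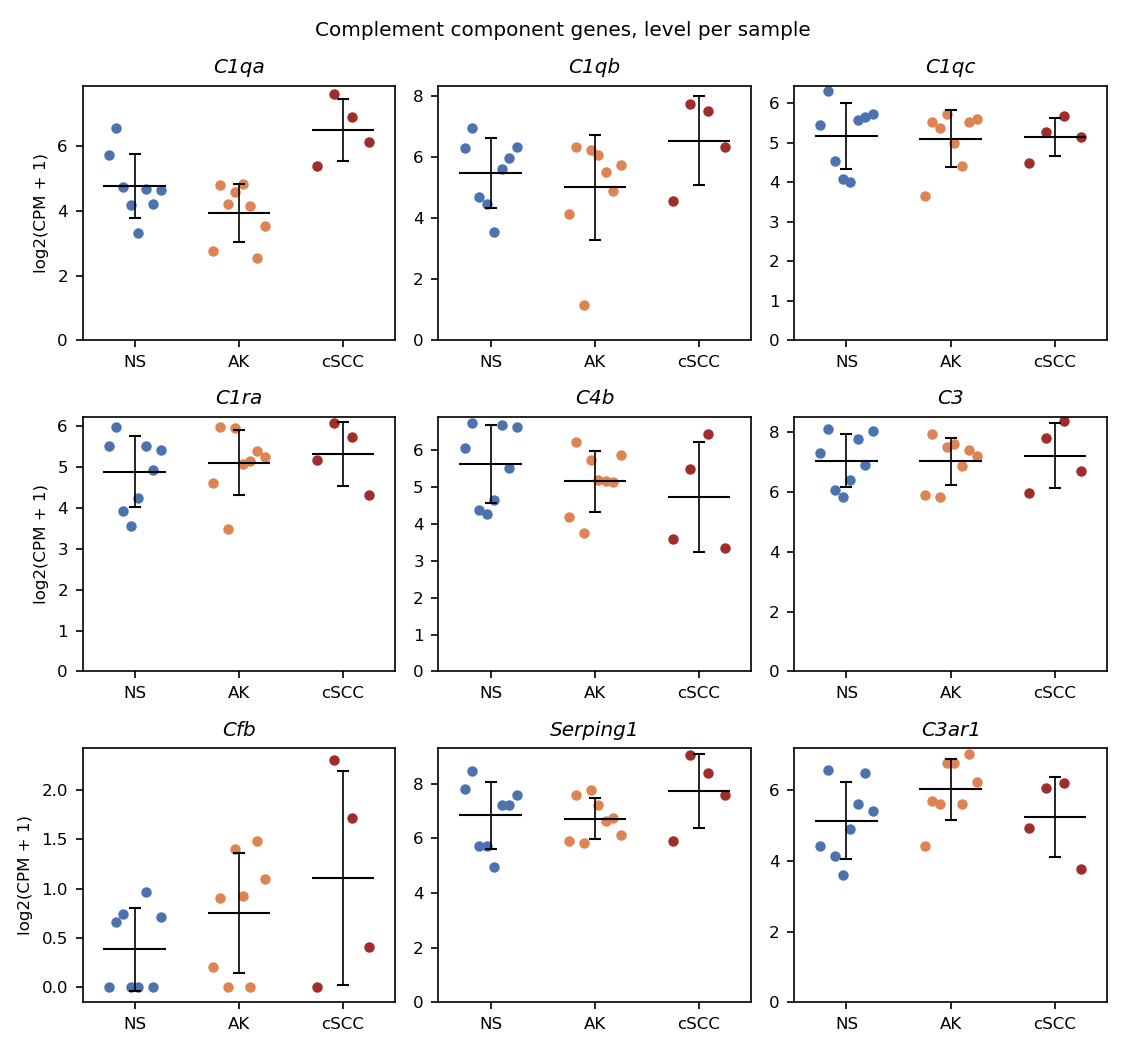
Level of each of the 9 complement component genes as log2(CPM + 1) on the vertical axis, with 1 point per sample in NS (n = 8), AK (n = 8) and cSCC (n = 4), the mean as a horizontal line and the SD as the error bar. The vertical scale differs between panels. In the C1qa panel the 4 cSCC points, 41.0 to 193 CPM, stand above every AK point, and in the C1qc panel they stand inside the NS and AK ranges.

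The 3 chain genes were therefore also set against each other within each sample, a view chosen after their values were seen and given with no test. Counts of C1qa per count of C1qc ranged from 0.356 to 1.21 in NS (median 0.837) and from 0.107 to 0.893 in AK (median 0.473). In cSCC replicates 18 to 21 the ratio was 1.90, 5.12, 2.36 and 2.00. Each cSCC sample was above each NS and AK sample, including replicate 18, in which C1qb and C1qc were low. Because both genes are counted in the same library, this ratio does not depend on the scaling between samples. Counts of C1qb per count of C1qc ranged from 0.704 to 1.86 in NS and from 0.0312 to 2.20 in AK, and were 1.06, 5.63, 3.68 and 2.38 in cSCC replicates 18 to 21. Here replicates 19, 20 and 21 lay above the other groups and replicate 18 lay inside their ranges. C1qa made up 13.6 to 35.3% of all C1q chain counts in NS and 6.11 to 29.8% in AK, and 48.0, 43.6, 33.5 and 37.2% in cSCC replicates 18 to 21. That share overlapped between NS and cSCC, in replicate 20.

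**Figure D2:**
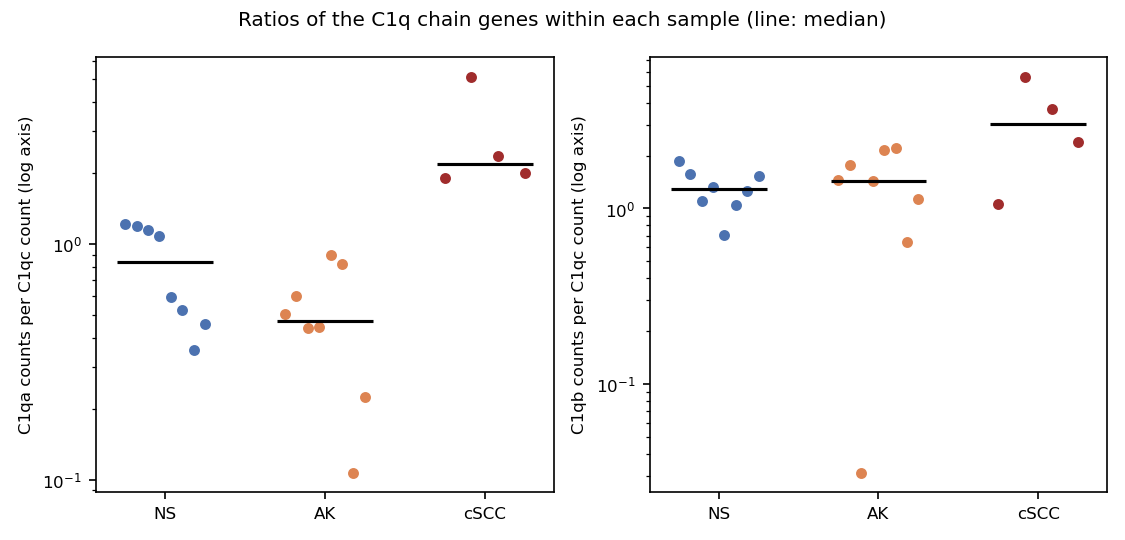
Counts of C1qa per count of C1qc (left) and of C1qb per count of C1qc (right) on log axes, with 1 point per sample and the group median as a line. On the left the cSCC points, 1.90 to 5.12, lie above all NS and AK points, and on the right 1 cSCC point, at 1.06, lies among them.

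Macrophages are the main source of C1q, so the C1q levels were set beside 9 macrophage marker genes such as Cd68, Csf1r, Mrc1 and Cd163. The summed level of the markers ranged from 1447 to 4884 CPM in NS (median 2089) and from 1492 to 8225 CPM in AK (median 4267), and none was at 0 throughout a group. In cSCC replicates 18 to 21 it was 2399, 5121, 7322 and 689 CPM. The summed level of the 3 C1q genes was 34.9 to 294 CPM in NS (median 125), 34.3 to 151 CPM in AK (median 96.2) and 85.4, 444, 353 and 183 CPM in cSCC replicates 18 to 21. The macrophage sums of all groups overlapped, and the C1q sum was highest in cSCC replicates 19 and 20. Among the markers, Fcgr1 rose in AK vs. NS (log2 fold change 1.49, adjusted p = 0.0356). Fcgr1 (1.64, adjusted p = 0.0485) and Cd14 (4.35, adjusted p = 0.000323), the gene of a lipopolysaccharide co-receptor, rose in cSCC vs. NS. In cSCC vs. AK, Cd14 rose (3.97, adjusted p = 0.00194).

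C1q CPM per macrophage marker CPM ranged from 0.0216 to 0.120 in NS and from 0.0120 to 0.0331 in AK, and was 0.0356, 0.0867, 0.0482 and 0.266 in cSCC replicates 18 to 21. The cSCC values were all above the AK values and overlapped those of NS. Replicate 21 combined the lowest macrophage sum of all samples, 689 CPM, with a C1q sum of 183 CPM, and it is the sample that held heart muscle genes. Dendritic cells also make C1q. The 5 Langerhans and dendritic cell markers summed to 328 to 1075 CPM in NS, 266 to 1127 CPM in AK and 114 to 950 CPM in cSCC. Among them, the Langerhans cell gene Cd207 fell in cSCC vs. NS (-4.96, adjusted p = 0.00321) and in cSCC vs. AK (-4.21, adjusted p = 0.00878), the comparisons in which C1qa rose. The other markers tested there, H2-Ab1 and Ccr7, were not called. Their log2 fold changes were -0.28 and 1.46 in cSCC vs. NS, and -0.11 and 1.46 in cSCC vs. AK. What part other cells or tissue had in the C1q levels was not tested. Counts of C1qa per count of C3ar1, a receptor gene expressed by macrophages, were 0.200 to 2.53 in NS, 0.0376 to 0.530 in AK and 1.40 to 5.42 in cSCC.

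**Figure D3:**
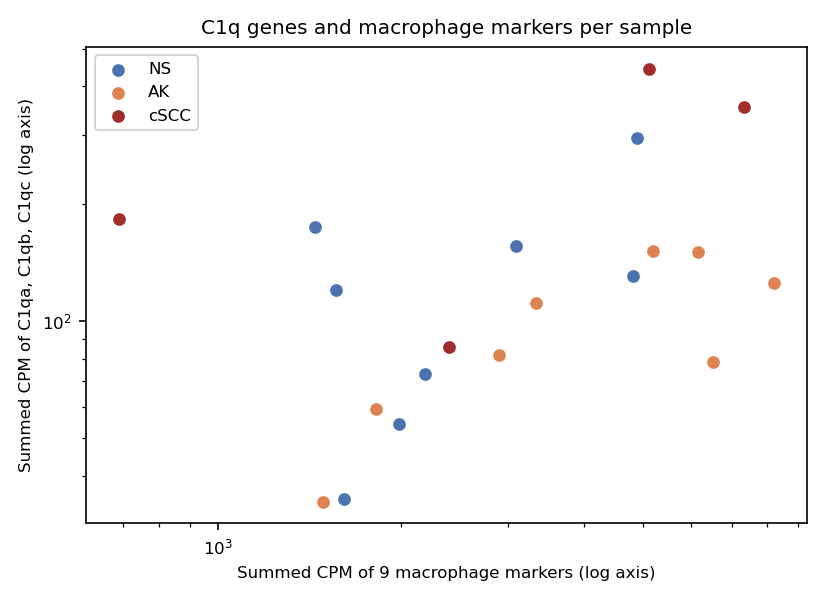
Summed CPM of C1qa, C1qb and C1qc against summed CPM of 9 macrophage markers in each sample, both on log axes, with color for the group. The AK points reach a macrophage sum of 8225 CPM but no C1q sum above 151 CPM, and the cSCC point at the far left is replicate 21, with 689 and 183 CPM.

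C1ra encodes C1r, the protease that is bound to C1q and activates C1s. It lies at chr6:124512405-124523443 on the plus strand of GRCm38. It ranged from 10.8 to 62.0 CPM in NS (median 35.5) and from 10.1 to 62.0 CPM in AK (median 35.4), and was at 34.7, 65.9, 52.3 and 18.7 CPM in cSCC replicates 18 to 21. Replicate 19 lay just above the other groups and the other cSCC samples inside them. The log2 fold changes were 0.18 (SE 0.35, adjusted p = 0.789) in AK vs. NS, 0.42 (SE 0.46, adjusted p = 0.557) in cSCC vs. NS and 0.27 (SE 0.41, adjusted p = 0.663) in cSCC vs. AK. C1ra shares much of its sequence with its neighbor C1rb, and how the authors' counting split such reads is not stated.

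C4b encodes complement C4, which C1s and the lectin pathway proteases cut, and it lies at chr17:34728380-34743882 on the minus strand. It ranged from 18.4 to 105 CPM in NS (median 55.2) and from 12.6 to 73.1 CPM in AK (median 35.1). In the cSCC samples it was at 11.1, 44.4, 86.5 and 9.26 CPM in the same order, so that replicates 18 and 21 lay below both other groups while replicate 20 lay above AK. Its log2 fold changes were -0.60 (SE 0.40, adjusted p = 0.365) in AK vs. NS, -0.63 (SE 0.65, adjusted p = 0.531) in cSCC vs. NS and 0.00 (SE 0.56, adjusted p = 0.997) in cSCC vs. AK. The near-identical gene C4a had no row in the table, so reads of both may be in C4b.

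C3, at chr17:57203970-57228136 on the minus strand, encodes the component at which all pathways meet. It ranged from 56.0 to 271 CPM in NS (median 136) and from 55.5 to 241 CPM in AK (median 156), and was at 61.1, 219, 330 and 102 CPM in cSCC replicates 18 to 21. Replicate 20, the library with lung genes, was the highest of all samples, and the other cSCC samples lay inside both ranges. The log2 fold changes were -0.09 (SE 0.35, adjusted p = 0.896) in AK vs. NS, 0.29 (SE 0.50, adjusted p = 0.729) in cSCC vs. NS and 0.41 (SE 0.45, adjusted p = 0.534) in cSCC vs. AK. Without replicate 20 the log2 fold change turned to -0.22 in cSCC vs. NS and -0.06 in cSCC vs. AK.

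Cfb encodes factor B, which joins cleaved C3 to form the alternative pathway convertase, and it lies at chr17:34856374-34862518 on the minus strand. Only 50 counts of it were found in all 20 samples, with 0 counts in 7 of them and at most 9 in any. It was at 0 to 0.957 CPM in NS, at 0 to 1.80 CPM in AK and at 0, 3.95, 2.28 and 0.331 CPM in cSCC replicates 18 to 21. These levels were near or below the floors of the libraries, the gene was not tested in any comparison, and a difference was not detectable at this depth. A predicted gene, Gm20547, overlaps Cfb on the same strand, so reads may have been left out or shared.

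Serping1 encodes the C1 inhibitor, which inactivates C1r and C1s, and it lies at chr2:84765387-84775444 on the minus strand. It ranged from 29.9 to 350 CPM in NS (median 148) and from 55.5 to 215 CPM in AK (median 103), and was at 59.0, 535, 333 and 192 CPM in cSCC replicates 18 to 21. Replicate 19 lay above all other samples, replicates 19 and 20 lay above AK, and replicates 18 and 21 lay inside both other ranges. The log2 fold change was 1.37 (SE 0.48, adjusted p = 0.0501) in cSCC vs. AK, 0.96 (SE 0.61, adjusted p = 0.286) in cSCC vs. NS and -0.37 (SE 0.42, adjusted p = 0.622) in AK vs. NS. cSCC vs. AK therefore just missed the threshold, and it passed with DESeq2 (1.39, adjusted p = 0.0279), with genes of at least 10 counts in every sample (adjusted p = 0.0315) and without cSCC replicate 18 (1.62, adjusted p = 0.0102), AK replicate 11 or AK replicate 13.

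C3ar1, at chr6:122847138-122856161 on the minus strand, encodes the receptor of C3a. It ranged from 11 to 93.9 CPM in NS (median 35.0) and from 20.4 to 128 CPM in AK (median 62.4), and was at 29.2, 65.0, 71.7 and 12.6 CPM in cSCC replicates 18 to 21. Of the 8 AK samples, 3 lay above the highest NS sample, and all cSCC samples lay inside the NS range. The log2 fold change was 0.73 (SE 0.42, adjusted p = 0.291) in AK vs. NS, 0.08 (SE 0.58, adjusted p = 0.939) in cSCC vs. NS and -0.63 (SE 0.51, adjusted p = 0.382) in cSCC vs. AK.

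Across the members, 8 of 9 passed the filter on low counts in each comparison, Cfb being the exception. A gene was called when its adjusted p-value was under 0.05 and its fold change above 1.5 or below 0.67. In AK vs. NS, 0 of the 8 were called by edgeR and 0 by DESeq2, and 1, C1qa, had an unadjusted p under 0.05, while 4.64% of all 11677 genes tested were called. The median log2 fold change of the 8 was -0.24 and that of all genes tested was -0.04. In cSCC vs. NS, 1 of the 8, C1qa, was called and was higher, beside 19.3% of 12097 genes called in either direction and 11.7% called higher. The members' median was 0.36 and that of all genes 0.14. In cSCC vs. AK, 1 of the 8, again C1qa, was called and was higher, beside 24.4% of 12032 genes called, 1931 of them higher. The members' median was 0.34 and that of all genes 0.17, and C1qb and Serping1 had unadjusted p-values under 0.05 of 0.0259 and 0.0123. C1qa was also the 1 member whose cSCC and AK samples did not overlap. A share of 1 in 8 members called is near the share of all genes called higher in both comparisons with cSCC, so these counts do not set the members apart. These comparisons share samples, so their calls of C1qa are not independent.

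**Figure D4:**
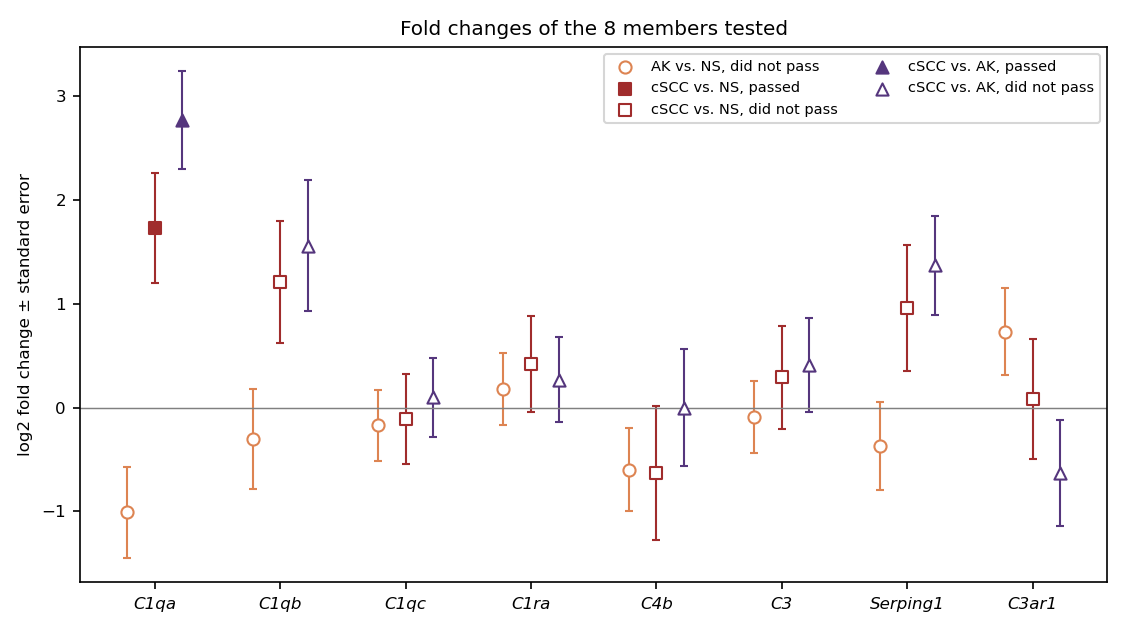
Log2 fold change of each of the 8 tested genes on the vertical axis in AK vs. NS (circles), cSCC vs. NS (squares) and cSCC vs. AK (triangles), with the standard error as the bar and filled symbols for genes that passed the test. The filled symbols are those of C1qa, at 1.73 and 2.77.

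Within NS and within cSCC, the members tended to be high or low in the same samples. NS replicate 2 was the highest NS sample for all 8 tested members, and the lowest was NS replicate 5 or 6. cSCC replicates 19 and 20 were the 2 highest cSCC samples for all 9 members. Levels of 8 fibroblast marker genes moved in the same way, with a sum of 8452 CPM in NS replicate 2 and 1097 CPM in NS replicate 6, and of 4970 and 6189 CPM in cSCC replicates 19 and 20 against 1350 and 2003 CPM in replicates 18 and 21. The keratinocyte marker sum was lowest in NS replicate 2 (6833 CPM) among NS samples, but was 18323, 17074, 5221 and 3748 CPM in cSCC replicates 18 to 21 and so did not follow the members there. The macrophage marker sum was also highest in NS replicate 2 (4884 CPM) and in cSCC replicates 19 and 20 (5121 and 7322 CPM). Its lowest NS value was in replicate 1 (1447 CPM). In AK the members shared their extremes in part. AK replicate 12, the AK library with the fewest counts (867219), was the lowest AK sample for C1qb, C1ra, C4b, C3 and Serping1. AK replicate 16 was the lowest AK sample for C1qa (4.79 CPM) and the highest for C3ar1 (128 CPM), and replicate 11 was the highest for C1qb, C1ra, C4b and C3. The part of tissue makeup in the members' levels was not tested. Between groups, 1 of the 8 fibroblast markers, Col1a1, was called, and it rose in cSCC vs. AK.

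Levels of different members were compared per exon length, as mean CPM per kb of merged exons. In NS the order was Serping1 (64.4), C1qb (51.8), C1qa (31.6), C3 (29.7), C1qc (20.9), C1ra (11.1), C4b (10.5), C3ar1 (10.1) and Cfb (0.126). In AK it was Serping1 (50.5), C1qb (42.0), C3 (28.1), C1qc (18.9), C3ar1 (16.9), C1qa (16), C1ra (12.6), C4b (6.94) and Cfb (0.288). In cSCC it was Serping1 (120), C1qb (115), C1qa (101), C3 (34.6), C1qc (18.6), C1ra (14.4), C3ar1 (10.4), C4b (6.64) and Cfb (0.581). Serping1 and C1qb led in each group, and C1qa stood at rank 3 in NS and cSCC and at rank 6 in AK. In NS and AK, no step between neighbors in the order was larger than the larger of their SDs except the step down to Cfb. In cSCC the step from C1qa to C3, 66.4 CPM per kb against an SD of 64.4, was the one that was larger.

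For each member, the genes with the most similar pattern were sought by Pearson's r of log2(CPM + 1) over the 20 samples among 12847 genes. The points share library depth and group differences, and r is given as a description. For C1qa these were Clec3b (0.89), Rcn3 (0.86) and Rasip1 (0.86), and for C1qb they were Cmtm3 (0.93), Tspan4 (0.91) and Cpq (0.90). For C1qc they were Gpm6b (0.86), Cxcl12 (0.84) and Rarres2 (0.82), so the 3 chain genes shared no gene among their top 3. C1ra was most like C1rb (0.93), Tmem176a (0.88) and Srpx (0.86). C4b was most like Rarres2 (0.88), C3 (0.87) and Trf (0.87), and C3 was most like Trf (0.93), Cxcl12 (0.89) and Rarres2 (0.88). Serping1 was most like Serpina3n (0.93), Hp (0.90) and Tspan4 (0.90). C3ar1 was most like Ms4a7 (0.91), Fcer1g (0.91), which encodes the Fc receptor gamma chain of myeloid cells, and Cd63 (0.90).

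The other genes of the complement system were taken from a list of 42, of which 40 had a row in the table. In AK vs. NS, 0 of 19 tested genes were called by edgeR or DESeq2, and 2, Clu and Cr1l, had an unadjusted p under 0.05. In cSCC vs. NS, 2 of 21 were called higher and 0 lower, beside 11.7% and 7.65% of all genes tested: the receptor gene C5ar1 and the regulator gene Vtn. In cSCC vs. AK, 5 of 21 were called higher and 0 lower, beside 1931 of 12032 genes called higher and 8.34% called lower: C5ar1, the alternative pathway gene Cfp and the regulator genes Clu, Cd59b and Cpn1. The median log2 fold change of the tested genes was 0.19, 0.39 and 0.04 in these comparisons, beside -0.04, 0.14 and 0.17 for all genes. By role, 0 of 4 tested classical pathway genes were called in any comparison. Of the 8 lectin pathway genes and 7 terminal pathway genes on the list, few reached the counts needed for testing, at most 1 and 2, and none was called. Cfd, another alternative pathway gene, was not called in any comparison. It ranged from 98.1 to 1203 CPM in NS and from 88.3 to 670 CPM in AK. In cSCC replicates 18 to 21 it was at 5.56, 6.15, 977 and 1.65 CPM. Replicates 18, 19 and 21 lay below every NS and AK sample, and replicate 20, the library with lung genes, lay above AK. The summed level of 4 adipocyte markers was 91.9 to 983 CPM in NS and 165 to 958 CPM in AK. It was 339, 145, 1162 and 481 CPM in cSCC replicates 18 to 21. Replicate 20 lay above every other sample in this sum, and the other cSCC samples lay inside the NS range. The part of adipocytes or lung tissue in the level of Cfd was not tested. In cSCC vs. NS the log2 fold change was -0.78 (SE 1.28, adjusted p = 0.707). In cSCC vs. AK it was -0.11 (SE 1.15, adjusted p = 0.952).

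C5ar1, the receptor of the chemoattractant C5a on neutrophils and macrophages, ranged from 1.13 to 30.4 CPM in NS and from 1.20 to 25.2 CPM in AK. In cSCC replicates 18 to 21 it was at 25.7, 101, 84.2 and 55.9 CPM, so all 4 lay above AK and 3 lay above NS. It rose by a log2 fold change of 2.69 (SE 0.59, adjusted p = 0.00814) in cSCC vs. NS and 2.78 (SE 0.61, adjusted p = 0.00682) in cSCC vs. AK. These calls were kept under each alternative in which the gene was tested and without any single sample. The gene of the other anaphylatoxin receptor, C3ar1, was not called in any comparison. The summed level of 7 neutrophil markers was 8.48 to 400 CPM in NS, 39.6 to 137 CPM in AK and 85.4 to 449 CPM in cSCC, and 2 of 5 tested markers were called higher in both comparisons with cSCC. Their part in the level of C5ar1 was not tested.

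Cfp, the gene of properdin, which stabilizes the alternative convertase, was at 9.72, 72.5, 67.1 and 13.4 CPM in cSCC replicates 18 to 21 against 12.7 ± 3.68 CPM in AK (SD, n = 8). The replicates split into a high and a low pair, and the low pair lay in the AK range. It rose in cSCC vs. AK by 1.78 (SE 0.47, adjusted p = 0.0149), a call lost without replicate 19 (1.32, adjusted p = 0.0721), and cSCC vs. NS gave 1.40 (SE 0.47, adjusted p = 0.0503).

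Cd59b, a gene of the CD59 inhibitor of the membrane attack complex, was at 2.78, 7.47, 37.5 and 25.8 CPM in cSCC against 5.90 ± 3.30 CPM in AK (SD, n = 8). It was high in replicates 20 and 21, the libraries with lung and heart genes. The rise in cSCC vs. AK (1.77, SE 0.57, adjusted p = 0.0356) was lost without replicate 20 (1.24, adjusted p = 0.138) or 21 (1.41, adjusted p = 0.148) and turned to -0.09 without both. It was also lost without any of AK replicates 10, 12, 13, 14, 15 and 17, so it was kept in 4 of 12 runs that left out a single sample and under 5 of 10 other settings.

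Clu, the gene of clusterin, an inhibitor of the terminal pathway, was at 70.8, 45.7, 53.5 and 1220 CPM in cSCC replicates 18 to 21 against 72.9 ± 26.3 CPM in AK (SD, n = 8). The rise in cSCC vs. AK (2.47, SE 0.71, adjusted p = 0.0220) rested on cSCC replicate 21 and turned to -0.35 (adjusted p = 0.476) without it, and the call was also lost without AK replicate 12 (2.24, adjusted p = 0.0513). Vtn, the gene of vitronectin, was likewise at 0, 0.879, 3.41 and 49.6 CPM in cSCC, and its rise in cSCC vs. NS (3.15, SE 1.00, adjusted p = 0.0414) turned to -0.37 (adjusted p = 0.865) without replicate 21. The call of Vtn was kept in 3 of the 10 runs without a single sample in which it was tested, and lost without any of NS replicates 1, 2, 4, 5, 6 and 9.

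Cpn1, which encodes a subunit of the carboxypeptidase that inactivates C3a and C5a, was at 31.3, 5.71, 5.69 and 9.76 CPM in cSCC against 3.24 ± 2.30 CPM in AK (SD, n = 8). It was highest in replicate 18. The rise in cSCC vs. AK (2.01, SE 0.62, adjusted p = 0.0304) was lost without replicate 18 (1.11, adjusted p = 0.213) and without replicate 21 (2.03, adjusted p = 0.0546). It was kept in 7 of 12 runs without a single sample, the other losses being without AK replicates 10, 14 and 17, and under 6 of 10 other settings.

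**Figure D5:**
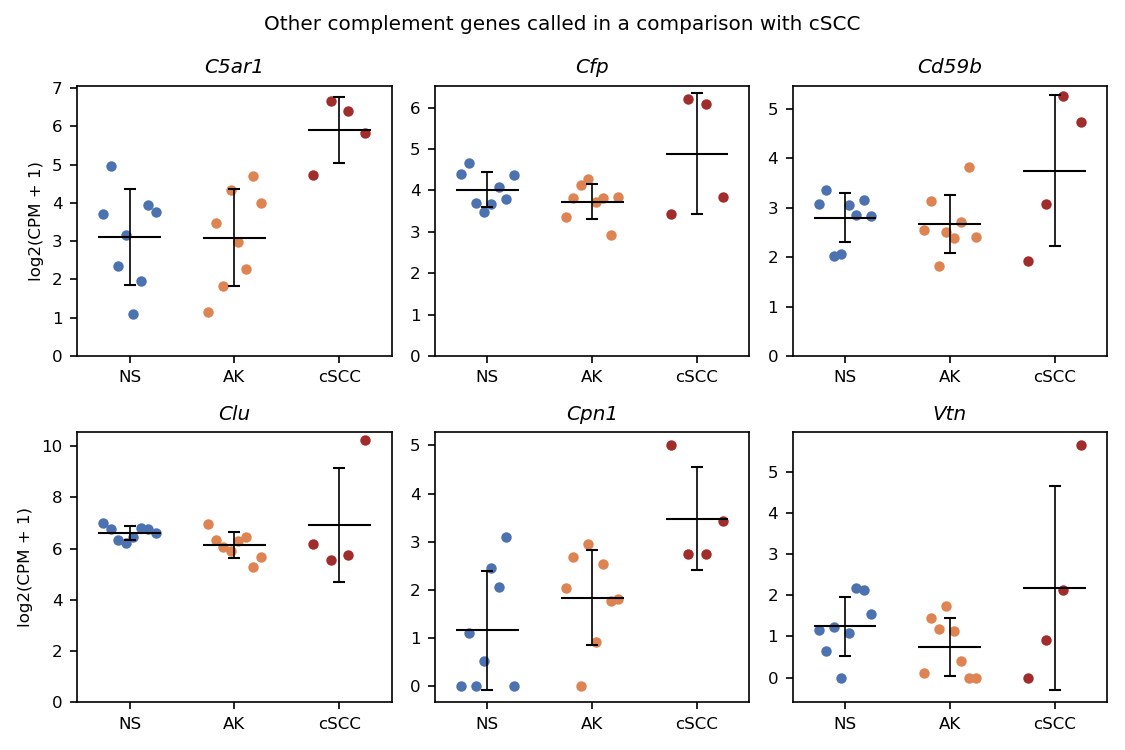
Level of the 6 other complement genes called in a comparison with cSCC, as log2(CPM + 1) on the vertical axis, with 1 point per sample, the mean as a line and the SD as the bar, and a vertical scale that differs between panels. All 4 cSCC points of C5ar1, 25.7 to 101 CPM, lie above AK, whereas 1 cSCC point, replicate 21, stands apart in the Clu (1220 CPM) and Vtn (49.6 CPM) panels.

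Genes that respond to interferon were examined because interferon is known to raise several complement genes. In AK vs. NS, 5 of 8 of these genes were called higher, and 0 of the 8 tested complement members were. In cSCC vs. NS, 1 of the 8 interferon-responsive genes, Irf1, was called higher. Endothelial markers, of which 5 of 6 were called higher in cSCC vs. NS and 6 of 6 in cSCC vs. AK, rose in the same comparisons as C1qa, with sums of 29.9 to 104 CPM in NS, 32.6 to 94.1 CPM in AK and 108, 104, 191 and 519 CPM in cSCC replicates 18 to 21. Their part in the C1qa level was not tested.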

How the data were processed

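RNA of 20 skin samples from SKH-1 mice (8 NS, 8 AK, 4 cSCC) was sequenced. Per the labels and the methods of the study, the authors trimmed reads with Trimmomatic 0.36 and aligned them with HISAT2 2.0.5. The methods name GRCm38 and StringTie, whereas the submitters' processing notes list mm9, hg19 and featureCounts 1.5.2, so the build and the counting step are uncertain. The authors deposited raw counts per gene symbol without normalization, and the strand setting is not stated. Coordinates here are from GENCODE M21 on GRCm38, matched by symbol.

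Groups were taken from the labels, which give neither mouse nor batch. The 9 members and all gene lists were chosen with earlier results of these data known. Named genes were the members, genes of the wider complement list called in a comparison, and for each member the 3 genes with the highest r. Cfd, other markers, and genes with an unadjusted p under 0.05, were named after their values were seen. Some items are withheld and are not reported here.

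CPM with TMM factors were computed in edgeR 4.0.16 (R 4.3.3). Each pair of groups was tested on its own samples with edgeR's quasi-likelihood test after filterByExpr, with Benjamini-Hochberg adjustment over all genes tested, and the test was checked on simulated data. Of tested genes given a simulated log2 fold change of 2, it recovered 89% in AK vs. NS. In cSCC vs. NS it recovered 56.9% and in cSCC vs. AK 61.1%, so changes of that size can be missed there. The simulated counts had the same dispersion in every gene and group, so recovery can differ for genes that vary more or less. The SE is the log2 fold change divided by the square root of F. Whether replicates came from separate libraries was checked over 62 pairs within groups, and their counts differed by more than sampling noise (smallest chi-square per degree of freedom 12.3). Totals ranged from 775750 to 14055206 counts. Alternatives were DESeq2 1.42.0, limma 3.58.1 voom with quality weights, upper quartile factors or library size alone for scaling, looser and stricter filters, 1 fit of all 20 samples, no fold change limit, the rule of the study's methods (an unadjusted p-value per gene), leaving out each sample and leaving out cSCC replicates 20 and 21 together. Once the data had been seen, a run without the 8 haemoglobin genes was added. Figures were drawn with matplotlib 3.10.9.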

Additional observations from a re-analysis of the deposited data

How the results depend on the processing

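Of 722 fold changes recomputed for the members and the called complement genes, 629 kept their direction and their side of the threshold, 45 lost a call, 6 gained one and 42 changed sign. The number of members called in AK vs. NS stayed at 0 under every setting. In cSCC vs. NS it was 1 in the test as reported and 0 with library size alone (C1qa 1.58, adjusted p = 0.0833) and without cSCC replicates 20 and 21, and ranged from 0 to 1 when single samples were left out. In cSCC vs. AK it was 1 as reported, 2 with DESeq2 (C1qa and Serping1), and 1 to 3 when single samples were left out. With at least 10 counts in every sample the gene called there was Serping1, because C1qa had too few counts to be tested.

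The number of other complement genes called in AK vs. NS was 0, and 1 without a filter on low counts (C7), and 0 to 1 in the leave-outs (Clu without AK replicate 10). In cSCC vs. NS it was 2, and 1 with library size alone, 7 with all 20 samples in 1 fit and 4 under the rule of the study's methods, with 1 to 5 in the leave-outs. In cSCC vs. AK it was 5, and 2 with voom, 3 with library size alone and 2 with at least 10 counts in every sample, with 2 to 7 in the leave-outs. Which of them passed changed with the setting, whereas C5ar1 was called wherever it was tested, with adjusted p-values up to 0.0345 in cSCC vs. NS and 0.0282 in cSCC vs. AK.

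Changes of sign concerned small fold changes, apart from those that rested on cSCC replicates 20 and 21. With voom, AK vs. NS turned to 0.16 for C1qb, 0.27 for C3 and 0.26 for Serping1, and cSCC vs. NS to 0.22 for C1qc. With library size alone, C3ar1 turned to -0.04 in cSCC vs. NS and C1qc to -0.07 in cSCC vs. AK. C1qc also turned to -0.10 without a filter, -0.04 in 1 fit and -0.21 without cSCC replicates 20 and 21 in cSCC vs. AK. C4b in cSCC vs. AK, at 0.00 as reported, was 0.06 with DESeq2, 0.02 with upper quartile factors, 0.07 with at least 10 counts and 0.05 under the rule of the study's methods. Without cSCC replicates 20 and 21, C3 turned to -0.09 and Vtn to -1.63 in cSCC vs. NS, and Cd59b to -0.09 and Clu to -0.27 in cSCC vs. AK. The cause of the other changes was not tested.

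When single samples were left out, AK vs. NS ranged from -0.29 to 0.04 for C1qc and from -0.24 to 0.08 for C3. cSCC vs. NS ranged from -0.33 to 0.09 for C1qc, -0.22 to 0.53 for C3, -0.26 to 0.40 for C3ar1 and -0.37 to 3.56 for Vtn. cSCC vs. AK ranged from -0.09 to 0.20 for C1qc, -0.03 to 0.44 for C1ra, -0.78 to 0.25 for C4b, -0.06 to 0.62 for C3 and -0.35 to 2.83 for Clu.

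Over all genes, the calls in AK vs. NS numbered 542 as reported, 9 in 1 fit of 20 samples, 1853 under the rule of the study's methods, 1049 with DESeq2 and 1043 with voom, and 164 to 920 in the leave-outs. In cSCC vs. NS they numbered 2340, 1308 with voom, 1526 with at least 10 counts and 1558 without cSCC replicates 20 and 21, and in cSCC vs. AK 2935, 1270, 1731 and 1584 in the same order, so the shares of genes called move with the setting. With library size alone the calls split into 176 higher and 481 lower in AK vs. NS, 625 and 1332 in cSCC vs. NS, and 1021 and 1356 in cSCC vs. AK, against 264 and 278, 1414 and 926, and 1931 and 1004 with TMM. The median log2 fold change of all genes was then -0.13, -0.17 and -0.09.

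No paired analysis was possible because the groups share no replicate number and no label names the mouse that gave a tissue. Depth limited Cfb, and 4 cSCC samples limit every comparison with that group.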

Other observations

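In NS, C1qa relative to some other genes differed between sets of samples, given as values because the labels do not say which NS tissues were irradiated. In NS replicates 1, 2, 4 and 5, counts of C1qa per count of C1qc were 1.08 to 1.21, and in NS replicates 6, 7, 8 and 9 they were 0.356 to 0.593. Counts of C1qa per count of the macrophage gene Cd68 were 0.445 to 0.860 in the first set and 0.0385 to 0.237 in the second. Counts of C1qa per count of C3ar1 were 0.991 to 2.53 and 0.200 to 0.577. Counts of C1qb per count of C1qc, at 1.11 to 1.86 and 0.704 to 1.54, overlapped between the sets. So did counts of C1qa per count of C1qb, at 0.653 to 1.04 and 0.282 to 0.842. The sets were seen in these values themselves and were not compared by a test.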
